A study of Mus musculus with 9 samples.

Results

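Il10, Ebi3, Il12a, Fgl2, Il10ra, Il10rb and Il27ra encode 3 secreted suppressive products of regulatory T cells (Tregs), together with receptor chains that receive IL-10 and the Ebi3-containing cytokines. They were taken by symbol and are 7 of the 23420 genes in the expression table. All 7 matched, and 6 of them, all but Il12a, were among the 11357 genes with a mean normalized read count of 10 or more that were tested.

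Tregs are CD4 T cells that depend on the transcription factor Foxp3 and hold other immune cells in check. They were profiled by RNA sequencing in 9 mouse libraries, 3 in each of 3 groups. The first group was synovial Tregs of mice with collagen-induced arthritis, a model in which immunization with cartilage collagen inflames the joints. The second was Tregs of the lymph nodes that drain the joints in such mice, and the third was Tregs of the same nodes in control mice that received no treatment. The genotype of all 9 is labelled WT, and all cells carried the YFP reporter of Foxp3 on which they were sorted after paws or nodes were digested; the labels name no strain, age or sex. The sort selects cells on reporter signal alone, so each library is bulk RNA of whatever passed that gate, and a change in the share of cells that make a transcript and a change in RNA per cell cannot be told apart. Titles number the arthritic mice 1 to 3 in both tissues, and a shared number was taken to mean a shared animal. No control synovium was among the samples, so the synovial libraries differ from control nodes in both tissue and disease.

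IL-10 is a homodimeric cytokine that binds Il10ra, the ligand-binding chain, and Il10rb, a chain shared with other receptors of the family, and signals through Jak1, Tyk2 and Stat3 to restrain inflammatory gene expression. Ebi3 is a subunit without a membrane anchor that pairs with Il12a (p35) to form IL-35 and with Il27 (p28) to form IL-27, whose receptor holds Il27ra and Il6st. Fgl2 is a fibrinogen-like protein that Tregs secrete and that acts on antigen-presenting cells through the inhibitory Fc receptor Fcgr2b.

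The stretches before the RefSeq starts of Fgl2 and Ebi3 are shown because both genes were higher in synovium and have an entry in the promoter table, which covered 3 of the 7 genes (Il12a is the other). Sequences are from RefSeq on GRCm38.p6, each is the 250 bases before the RefSeq start on the plus strand, and capitals mark motif matches. The Fgl2 stretch is chr5:21372423-21372672 and the Ebi3 stretch is chr17:55952373-55952622. GENCODE vM21 starts Fgl2 31 bases before the RefSeq start, so the last 31 bases of its stretch lie inside the GENCODE gene, and starts Ebi3 17 bases after it.
Fgl2: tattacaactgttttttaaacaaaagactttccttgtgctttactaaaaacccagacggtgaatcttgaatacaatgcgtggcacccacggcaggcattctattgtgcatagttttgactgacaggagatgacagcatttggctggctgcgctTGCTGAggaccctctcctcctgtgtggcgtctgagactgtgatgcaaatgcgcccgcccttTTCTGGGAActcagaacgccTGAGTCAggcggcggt
Ebi3: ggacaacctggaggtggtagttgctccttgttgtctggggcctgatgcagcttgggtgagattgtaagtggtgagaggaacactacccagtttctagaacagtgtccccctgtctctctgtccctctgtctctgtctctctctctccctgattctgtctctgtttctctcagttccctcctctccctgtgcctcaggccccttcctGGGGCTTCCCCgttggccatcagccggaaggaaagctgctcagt
The motifs named here were searched on both strands. In the Fgl2 stretch, counting the base before the start as -1, the AP-1 motif TGANTCA matched as TGAGTCA at -16 to -10, which is downstream of the GENCODE start. The STAT motif TTCNNNGAA matched as TTCTGGGAA at -36 to -28, across the GENCODE start, and the short MAF site TGCTGA matched at -97 to -92. In the Ebi3 stretch the NF-kB motif, GGG and CC with 5 bases of any kind between them, matched on both strands as GGGGCTTCCC at -44 to -35 and, overlapping it, as GGGCTTCCCC at -43 to -34. Among 32851 promoter windows of the same length, 6.75% held the AP-1 motif, 7.02% the STAT motif, 16.1% the MAF site and 45.8% the NF-kB motif, so the Ebi3 match is a common one. The GATA motif AGATAA and the CRE motif TGACGTCA, held by 9.99% and 1.55% of windows, were not found in either stretch. These matches describe letters in a window; binding was not measured.

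Values below are normalized read counts (reads divided by a size factor per library), with the mean ± SD of 3 libraries. Fold changes are log2 ± standard error on the log2(value + 1) scale from limma over all tested genes, with Benjamini-Hochberg adjusted p-values, and a gene is called when that p is under 0.05. Reads in genes numbered 11300406 to 12855435 per library, which covered 11770 to 13118 genes. Control node library 1 had the fewest genes with a read, 11770 against 12331 to 13118 in the others. Without it, 5 of the 6 tested genes were called in synovium against arthritic nodes, 0 between the node groups and 4 in synovium against control nodes, where Il10ra was the call lost. A value of 3 reads corresponds to 2.61 to 3.52, so 6 of the 7 genes were far above the counting floor in every library.

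Synovial Tregs held more RNA for Il10, Ebi3 and Fgl2 than node Tregs of the same arthritic mice. Il12a, the other subunit of IL-35, was too low to be tested. Of the 6 tested genes, 5 rose in synovium and none fell, where 33.8% of all tested genes were called in either direction and 17.9% were called higher. For Il10, Ebi3, Fgl2 and Il10rb every synovial library lay above every arthritic node library, as it did for 25.2% of tested genes. The increase was 12.8-fold for Fgl2, 9.89-fold for Il10 and 2.89-fold for Ebi3, while the receptor chains Il10ra and Il10rb differed by less and Il27ra was not called. Between arthritic and control nodes none of the 6 was called. The 3 comparisons share libraries, so their values are given side by side without a measure of overlap.

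Il10, at chr1:131019845-131024974 on the plus strand (5 exons, GENCODE vM21 on GRCm38), was at 2860.5, 1619 and 2046 in the synovial libraries of mice 1, 2 and 3. In the arthritic node libraries of the same mice it was at 80, 394 and 306, and in the control node libraries at 98.4, 67.7 and 112. The synovial values all lay above every node value, and node library 1 of the arthritic mice lay within the range of the controls while the other 2 lay above it. The means were 2175 ± 631, 260.1 ± 162 and 92.8 ± 22.8. Il10 rose in synovium by 3.31 ± 0.48 (limma adjusted p = 0.000225), and 3.08% of tested genes had a higher fold change. The same-mouse ratio of synovium to node was 35.8, 4.1 and 6.69, so the pair with the low node value gave the widest ratio. Without that node library the difference was 2.6 (limma adjusted p = 0.000106). Between arthritic and control nodes the difference was 1.22 ± 0.48 (limma adjusted p = 0.468), with overlapping groups. Without arthritic node library 1 it was 1.92 (limma adjusted p = 0.0262), so the call in that comparison rested on whether this library was included. Against control nodes, synovial Il10 rose by 4.53 ± 0.48 (limma adjusted p = 1.4e-05).

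Fgl2, at chr5:21372642-21378374 on the plus strand (2 exons), was the highest of the 7 genes in synovium both as a count and per kb. Synovial libraries held 11214, 12745 and 9952. Arthritic nodes held 459, 1139 and 1304, and control nodes 590.2, 701 and 1346. No node library came near the synovial ones, and the node groups overlapped in part, with the lowest value in an arthritic and the highest in a control library. Fgl2 rose in synovium by 3.67 ± 0.36 against arthritic nodes (limma adjusted p = 9.73e-06), with 2.54% of tested genes having a higher fold change. The same-mouse ratios were 24.4, 11.2 and 7.63. Against control nodes it rose by 3.77 ± 0.36 (limma adjusted p = 5.78e-06), and between the node groups the difference was 0.10 ± 0.36 (limma adjusted p = 0.975). The gene lies inside Ccdc146 on the opposite strand with no shared exon bases, and Ccdc146 was at 1.75 to 13.0 in the 9 libraries.

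Ebi3, at chr17:55952640-55957022 on the plus strand (5 exons), was at 1713, 2037 and 1931 in synovium. It was at 844, 634 and 522 in arthritic nodes and at 429.6, 427 and 488 in control nodes, so the 3 groups did not overlap and stood in that order. Ebi3 rose in synovium by 1.53 ± 0.18 against arthritic nodes (limma adjusted p = 3.99e-05), a change that 10.2% of tested genes exceeded. The same-mouse ratios were 2.03, 3.21 and 3.7, closer together than those of Il10 or Fgl2. Against control nodes Ebi3 rose by 2.08 ± 0.18 (limma adjusted p = 2.46e-06). Arthritic nodes differed from control nodes by 0.55 ± 0.18, which did not pass (limma adjusted p = 0.348). In that comparison 7.89% of tested genes had every arthritic library above every control library. An antisense gene, Gm16712, shares 270 exon bases with Ebi3, and the strand setting of the counting is not given in the sources used here.

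Il12a, at chr3:68690644-68698547 on the plus strand, was close to the limit of counting. It had 3, 0 and 9 reads in the synovial libraries, 9, 0 and 0 in the arthritic nodes and 0 in all 3 control nodes, where a count of 0 allows a value of up to 2.71 to 3.01. It was not tested, and no difference between groups was detectable at this depth. The 2 subunits of IL-35 thus stood far apart in level. Ebi3 exceeded Il12a 518-fold in synovial library 1, 191-fold in synovial library 3 and 108-fold in arthritic node library 1. In the 6 libraries with no Il12a read, Ebi3 was at least 578-fold higher in synovial library 2, at least 220-fold and 199-fold higher in arthritic node libraries 2 and 3, and at least 143-fold, 158-fold and 178-fold higher in the control nodes. These ratios are of normalized counts not divided by gene length, and bounds are set against 3 reads per library. The other Ebi3 partner, Il27, had reads in arthritic node library 1 only, where its value was 2.61.

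**Figure D1:**
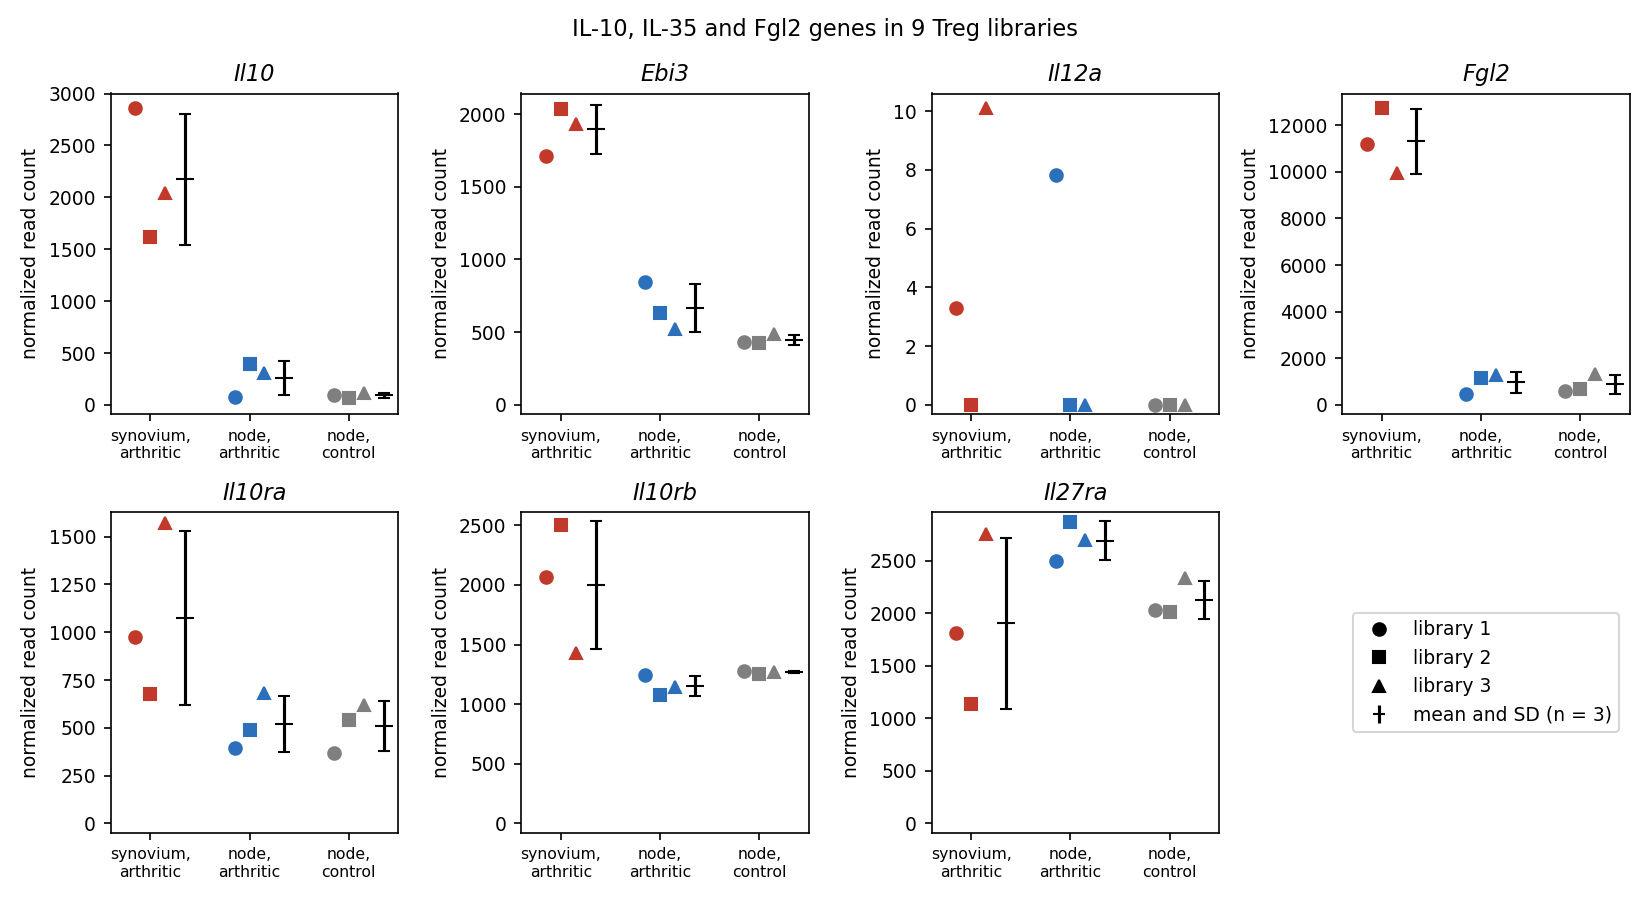
Normalized read count of each of the 7 genes (vertical axis, its own scale per panel) in the 3 groups of 3 libraries; points are libraries and bars, where drawn, are mean and SD. Synovial points for Fgl2 (9952 to 12745), Il10 (1619 to 2860.5) and Ebi3 (1713 to 2037) lie above all node points, while Il27ra points overlap.

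Of the receptor chains, Il10ra and Il10rb rose in synovium, with smaller fold changes than Il10, Ebi3 and Fgl2, and Il27ra was not called in any comparison. Il10ra, at chr9:45253837-45269149 on the minus strand, was at 974, 676 and 1569 in the synovial libraries. Arthritic nodes held 394, 488 and 683, and control nodes 366, 539.9 and 622. The lowest synovial library, that of mouse 2, lay within the range of the arthritic nodes but above its own node library. Il10ra rose in synovium by 0.99 ± 0.31 against arthritic nodes (limma adjusted p = 0.0252) and by 1.02 ± 0.31 against control nodes (limma adjusted p = 0.0187). The first call was lost without synovial library 1 (limma adjusted p = 0.0573) or 3 (0.0988) and without arthritic node library 1 (0.103) or 2 (0.0714). The second was lost without synovial library 3 (limma adjusted p = 0.0764) or control library 1 (0.0772), and neither call held without the variance trend. These fits did not use the shared mouse number. In a fit of synovium and arthritic nodes alone with the mouse as a block, the difference was 0.99 ± 0.20 (limma adjusted p = 0.00513). The same-mouse ratios of synovium to node were 2.47, 1.39 and 2.3. Between the node groups Il10ra differed by 0.03 ± 0.31 (limma adjusted p = 0.99).

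Il10rb, at chr16:91406164-91425834 on the plus strand, was at 2065, 2503 and 1433 in the synovial libraries. Arthritic nodes held 1241, 1073 and 1146, and control nodes a narrow 1275, 1257 and 1273. It rose in synovium by 0.76 ± 0.17 (limma adjusted p = 0.00521) against arthritic nodes and by 0.62 ± 0.17 (limma adjusted p = 0.0139) against control nodes, with every synovial library above every node library. In the second, the call was lost without synovial library 2 (limma adjusted p = 0.052). Arthritic nodes lay just below control nodes, by -0.14 ± 0.17 (limma adjusted p = 0.876), and 7.03% of tested genes were separated in that direction. Gm21970, a gene on the same strand, shares 569 exon bases with Il10rb and is not among the genes of the expression table. How reads in the shared bases were counted is not given in the sources used here.

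Il27ra, at chr8:84030294-84042589 on the minus strand, was the most abundant of the 7 in nodes per length. Synovial libraries held 1814, 1139 and 2759.9, arthritic nodes 2501, 2872 and 2698, and control nodes 2036, 2015 and 2340.0. The synovial libraries spread over a wider range than either node group and overlapped both. Against arthritic nodes the difference was -0.59 ± 0.24 (limma adjusted p = 0.0756), and it ranged from -0.26 without synovial library 2 (limma adjusted p = 0.262) to -0.90 without synovial library 3 (limma adjusted p = 0.00271). Against control nodes it was -0.25 ± 0.24 (limma adjusted p = 0.431). Arthritic nodes were above control nodes in every library, by 0.34 ± 0.24 (limma adjusted p = 0.749), which did not pass. The same separation held for 7.89% of tested genes.

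**Figure D2:**
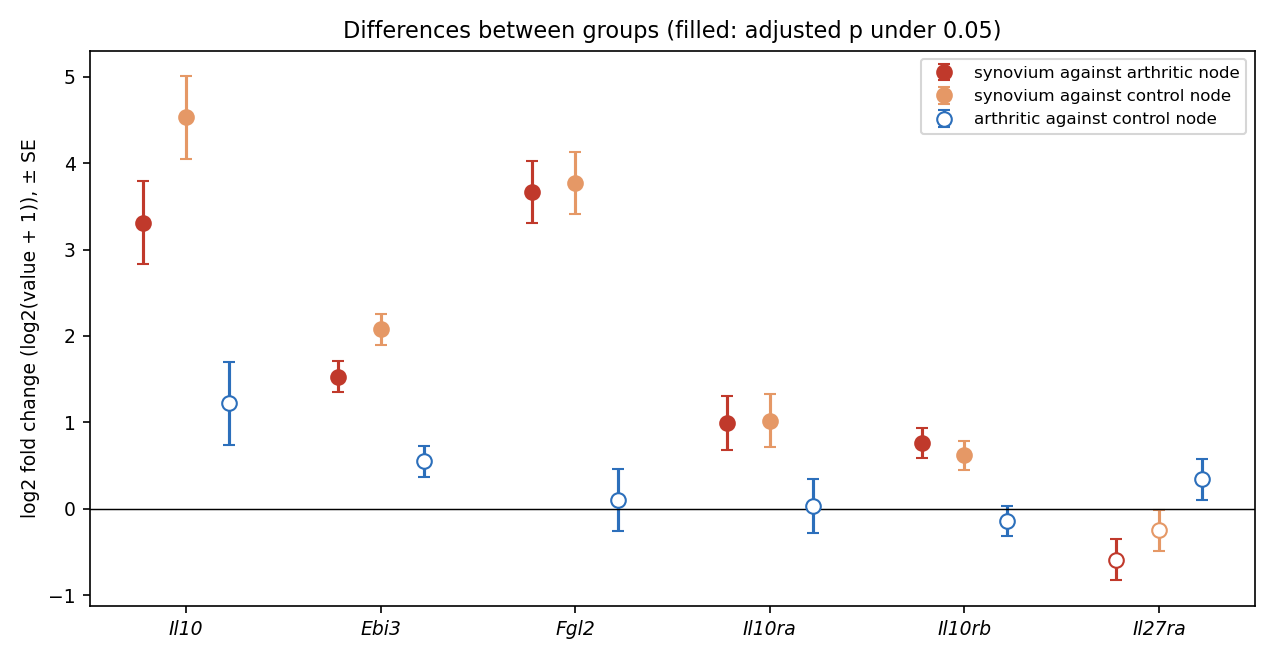
Log2 fold change of the 6 tested genes on the log2(value + 1) scale (vertical axis) in the 3 comparisons; points are limma estimates, filled where the adjusted p is under 0.05, and bars are standard errors. Fgl2 (3.67) and Il10 (3.31) lie farthest from 0 in synovium against arthritic nodes, and Il27ra (-0.59) is on the other side of 0.

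In the disease comparison the background was 0.343% of tested genes called, and 0 of the 6 genes were called by limma. None was called by edgeR or DESeq2 either, which called 0.326% and 1.53% of all genes. At an unadjusted p under 0.05, 2 of the 6 (Il10 and Ebi3) and 1031 of 11357 genes passed in the limma fit. In the comparison of synovium with control nodes 5 of the 6 rose, while 40.1% of tested genes were called and 21.6% were called higher. Those 5 also had no overlap of the groups, with synovium higher, as did 26.2% of tested genes. The table of the authors' own comparison gave log2 fold changes for synovium against arthritic nodes of 3.526 for Fgl2, 3.045 for Il10, 1.484 for Ebi3, 1.021 for Il10ra, 0.7727 for Il10rb and -0.5194 for Il27ra. In the authors' deposited table the adjusted p was 0.117 for Il27ra and 0.881 for Il12a, and at most 0.00506 for the other 5.

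Divided by exon length, the order of the genes differed between synovium and nodes. In synovium Fgl2 led with 2980 ± 369 normalized counts per kb, followed by Il10 (1660 ± 481) and Ebi3 (1640 ± 143), whose libraries overlapped. Il10rb (1080 ± 291), Il27ra (715 ± 306) and Il10ra (307 ± 130) came next, each overlapping its neighbour. In arthritic nodes Il27ra led with 1010 ± 69.7 per kb, then Il10rb (623 ± 45.6) and Ebi3 (578 ± 141), which overlapped. Fgl2 (255 ± 118), Il10 (199 ± 124) and Il10ra (149 ± 42.2) formed a lower cluster without separation. In control nodes Il27ra (800 ± 68.2 per kb), Il10rb (685 ± 5.35) and Ebi3 (388 ± 29.7) each stood apart from the next, with Il10 last among the 6 detected genes at 70.8 ± 17.4. Among 10322 tested genes with a length, the Il10 mean exceeded 94.0% for synovium, 65.7% for arthritic nodes and 43.7% for control nodes, and the Fgl2 mean exceeded 96.7%, 70.6% and 68.7%. The corresponding percentages for Il27ra were 86.3, 91.1 and 88.8.

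**Figure D3:**
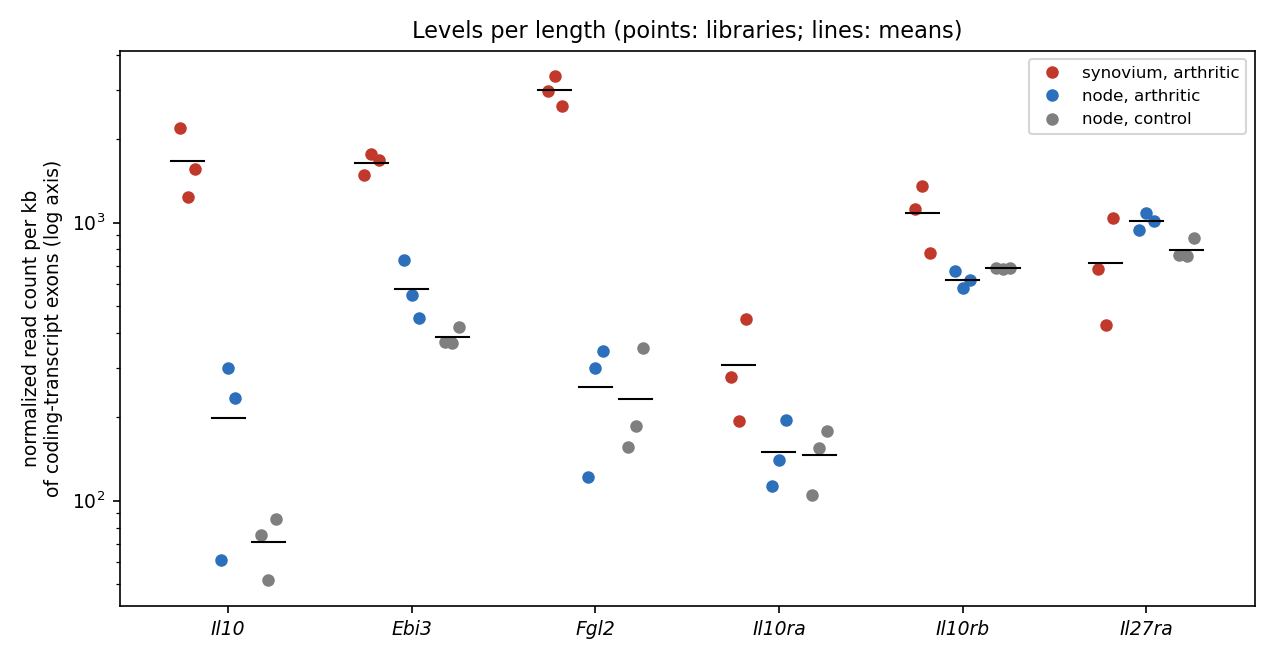
Normalized counts per kb of exon (vertical axis, log scale) for the 6 tested genes in the 3 groups; points are libraries and lines are means. Fgl2, Il10 and Ebi3 occupy the upper places in synovium, and Il27ra and Il10rb in nodes.

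Within a library, the ratio of Il10ra to Il10rb was 0.472, 0.27 and 1.09 for synovial libraries, 0.317, 0.455 and 0.596 for arthritic nodes and 0.287, 0.43 and 0.489 for control nodes, and the groups overlapped. The ratio of Il10 to Fgl2 was 0.255, 0.127 and 0.206 for synovial libraries, 0.174, 0.346 and 0.234 for arthritic nodes and 0.167, 0.0965 and 0.0834 for control nodes. Control nodes were thus lowest on average for this ratio, but control library 1 lay within the synovial range. These ratios were described and not tested.

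The rest of the IL-10 family was nearly silent in these libraries. Of 11 other ligands and receptors of the family, 1 was tested (Il20rb) and none was called; Il20, Il24, Ifnl2, Ifnl3, Il20ra and Il22ra1 had no read in any library. Il22, a T cell cytokine that acts on epithelium, was at up to 11.7 in synovial libraries and had no read in nodes. Of 9 genes of IL-10 signalling and response, 5 rose in synovium against arthritic nodes and none fell (33.8% of all tested genes were called and 17.9% higher), with a median log2 difference of 0.90 against -7.25e-05 over all tested genes. Nfil3, a transcription factor induced by IL-10, rose by 4.74 ± 0.41 (limma adjusted p = 3.26e-06) from 81.3 to 2058. Stat3, the factor through which the receptor signals, rose by 2.43 ± 0.16 (limma adjusted p = 2.75e-07) from 6265 to 34557. Bcl3, a nuclear IkB protein, rose by 1.85 ± 0.44 (limma adjusted p = 0.00682). Jak1 and Tyk2, the kinases of the receptor, were not called.

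Socs3 is the feedback inhibitor that Stat3 induces. It was the 1 gene of that list called between arthritic and control nodes, where 0.343% of all tested genes were called. Its mean was 308 in control nodes, 1461 in arthritic nodes and 2765 in synovium. It rose by 2.26 ± 0.27 in arthritic over control nodes (limma adjusted p = 0.0118) and by 0.90 ± 0.27 in synovium over arthritic nodes (limma adjusted p = 0.0215). The call between nodes was lost without arthritic node library 2 (limma adjusted p = 0.0818) or 3 (0.0603), and in a fit of those groups alone (0.108).

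Of 13 transcription factors known to regulate Il10 in T cells, 8 rose in synovium against arthritic nodes and 2 fell, with a median of 1.49, where 33.8% of all tested genes were called. In synovium against control nodes 10 rose and 2 fell, where 40.1% were called. Bhlhe40, which represses Il10 in T cells, rose by 5.06 ± 0.30 (limma adjusted p = 1.48e-07) from 566 to 19257. Gata3, the factor of type 2 and of some tissue Tregs, rose by 2.39 ± 0.15 (limma adjusted p = 1.73e-07). Egr2, an early growth response factor, fell by 1.57 (limma adjusted p = 0.000294) and Ikzf1, which encodes Ikaros, fell by 1.15 (limma adjusted p = 3.23e-05). Prdm1, which encodes Blimp-1, rose by 3.07 ± 0.37 in synovium against control nodes (limma adjusted p = 3.94e-05). Stat3, Nfil3 and Stat4 stand in more than 1 of these lists, so the counts are not independent.

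Of 15 other genes of the IL-12 family and its receptors, 11 were tested, 4 rose and 1 fell in synovium against arthritic nodes, where 33.8% of all tested genes were called. Il23r, the receptor chain specific for IL-23, rose by 4.41 ± 0.75 (limma adjusted p = 0.000702) from 24.6 to 480, and by 3.77 without arthritic node library 1. Jak2, a kinase of that receptor, rose by 3.19 ± 0.15 (limma adjusted p = 2.56e-08). Il6ra, the IL-6 binding chain, fell by 2.21 (limma adjusted p = 2.92e-06) from 2842 to 632. Il6st, which pairs with Il27ra, was at 2132 ± 271 in synovial, 1965 ± 210.5 in arthritic node and 1789.7 ± 297 in control node libraries, and the first pair of groups differed by 0.11 ± 0.15 (limma adjusted p = 0.599). Il12rb2, a chain of IL-12 and IL-35 receptors, was at 119 ± 60 in synovium and 31.7 ± 32.2 in arthritic nodes, with a difference of 3.07 ± 1.37 (limma adjusted p = 0.104). With the mouse as a block the adjusted p was 0.0237, and leaving out arthritic node library 1 gave 0.0462 where leaving out library 3 gave 0.375 (limma). Il12rb1 differed by 0.45 ± 0.40 (limma adjusted p = 0.427). Against control nodes Il12rb1 rose in synovium by 1.28 ± 0.40 (limma adjusted p = 0.0241), while Il12rb2 differed by 3.50 ± 1.37 (0.0586) and was not called. In that comparison 5 of the 11 rose and 1 fell, where 40.1% of all tested genes were called. Il12b and Il23a had no read in any library.

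Among 9 other genes related to Fgl2, 2 were tested and both rose in synovium against arthritic nodes (17.9% of all tested genes rose). Tigit, an inhibitory receptor of Tregs whose engagement is known to induce Fgl2, rose by 3.14 ± 0.24 (limma adjusted p = 1.05e-06) from 1934 to 17091. Lag3, an inhibitory receptor that binds Fgl1, rose by 1.53 ± 0.37 (limma adjusted p = 0.00667). Fgl1 and the fibrinogen chains Fga, Fgb and Fgg had no read in any library. The Fgl2 receptor Fcgr2b was at up to 14.9 and was not tested.

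**Figure D4:**
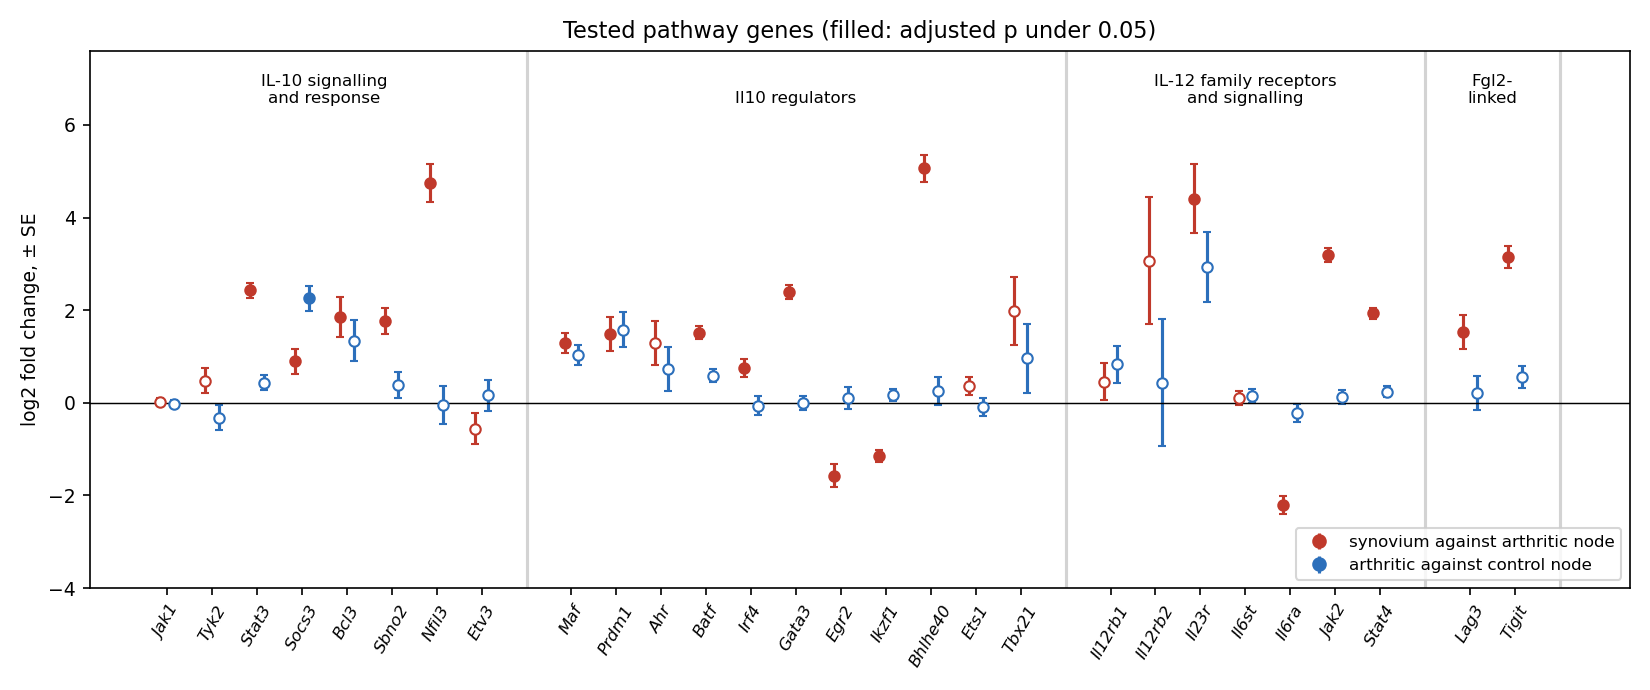
Log2 fold change (vertical axis) of tested genes of the IL-10, IL-12 and Fgl2 lists, each drawn once, in synovium against arthritic nodes and in arthritic against control nodes; points are limma estimates, filled where the adjusted p is under 0.05, and bars are standard errors. In synovium Bhlhe40 (5.06) and Nfil3 (4.74) lie farthest above 0 and Il6ra (-2.21) farthest below, and Socs3 (2.26) is the filled point between nodes.

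The gate was checked by marker genes. Foxp3 was at 465 ± 65.3 in synovial, 269 ± 41 in arthritic node and 266 ± 123 in control node libraries, and Cd3e, a chain of the T cell receptor complex, at 11010.1 ± 1399, 11035 ± 607 and 10873 ± 530.2. Of the 6 Treg markers, 3 rose in synovium against arthritic nodes: Il2ra by 1.74, Ctla4 by 1.83 and Ikzf2 by 1.26 (limma adjusted p = 6.18e-07, 2.01e-06 and 0.000371), and 5 rose against control nodes. Of all tested genes, 17.9% rose in synovium against arthritic nodes and 21.6% against control nodes. The list of Treg markers summed to 97530 to 102100 in synovial libraries, 39880 to 46080 in arthritic nodes and 44040 to 48820 in control nodes. Of 9 markers of dendritic cells, which also make Ebi3, Fgl2 and Il10, 4 were tested. In synovium against arthritic nodes 3 rose (17.9% of all tested genes rose). The sum over that list was 12970 to 15840 in synovium against 4446 to 5331 and 3099 to 4733 in the node groups, mostly Cd74, and Xcr1 and Zbtb46 were among the 3. H2-Aa, the other tested marker of the list, differed by -0.69 ± 0.68 against arthritic nodes (limma adjusted p = 0.471) and was not called. Clec9a had no read in any library and Itgax none in synovium. Macrophage and monocyte markers summed to 79.8 to 314 in synovium and to 61.6 to 549 and 74.0 to 367 in nodes, with Adgre1, Fcgr1 and Mrc1 at 0 in synovium. Of that list 4 were tested, and Cd14 rose against arthritic nodes by 5.29 ± 1.22 (limma adjusted p = 0.00516), as 17.9% of all tested genes did. The others, C1qb (-3.37 ± 1.73), Lyz2 (-3.19 ± 1.44) and Cd68 (-0.64 ± 0.76), lay below 0 and were not called. Against control nodes Cd14 rose by 6.62 and Lyz2 fell by 4.14 (limma adjusted p = 0.001 and 0.0377). Of 6 markers of B and plasma cells, 4 were tested and 1 (Cd79b) fell in synovium against arthritic nodes. Of the 11357 tested genes, 1810 fell in that comparison. Cd79a differed by -0.28 ± 0.67 and Sdc1 by 2.94 ± 1.61, and neither was called. Of 4 mast cell markers, 2 were tested and Kit rose (17.9% of all tested genes rose). Mcpt4 and Cma1 had no read in any library. Cpa3 differed by -2.69 ± 0.98 (limma adjusted p = 0.0502) and, in synovium against control nodes, fell by 3.11 (limma adjusted p = 0.0235). Of 5 neutrophil markers, 4 matched, none was tested and Csf3r had no read. Of 3 endothelial markers, 1 was tested, Pecam1, which fell, and Kdr had no read. Of 6 fibroblast markers, 5 were tested and none was called in synovium against arthritic nodes. Against control nodes 1 rose, Dcn, by 5.59 ± 1.62 (limma adjusted p = 0.0158), where 21.6% of all tested genes rose. Dcn was at 16.5 to 455 in the synovial libraries. Fibroblast markers summed to 1724 in synovial library 3 and to at most 70.5 in the other 2. Of 12 genes of stress and tissue handling, 10 rose in synovium against arthritic nodes (17.9% of all tested genes rose). The 12 summed to 109100 to 145200 in synovium against 13170 to 19970 in arthritic and 12960 to 17010 in control nodes. Their part in the results for Il10, Ebi3 and Fgl2 was not tested.

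For each tested gene, the 3 genes with the smallest root mean square difference of log2 values, after centring over the 9 libraries, were taken from 8947 genes with a mean of 50 or more. They were Id2 (0.51), Cxcr6 (0.52) and Il18rap (0.54) for Il10, and Cobll1 (0.31), Ifrd1 (0.36) and Kdm2b (0.40) for Fgl2. For Ebi3 they were Batf (0.17), Ahi1 (0.21) and Itpr1 (0.23). For Il10ra they were Il2rb (0.17), Sipa1l1 (0.19) and Rusc1 (0.20), and for Il10rb Rsbn1l (0.11), Top1 (0.12) and Chd1 (0.12). For Il27ra they were Mbtps1 (0.08), Supt5 (0.13) and Tmppe (0.14). All distances are over the same 9 libraries, which share their depth and scaling.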

How the data were processed

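RNA sequencing of sorted Tregs gave 9 libraries in 3 groups of 3, grouped by titles that give each mouse a number, so replicates are separate mice. The submitters' processing notes name HISAT2, HTSeq, DESeq2 and mm10; versions, gene annotation and whether counting used strand are not given in the sources used here. A deposited table holds a normalized signal, each library's read counts over its own size factor: 100% of nonzero values were whole multiples, within 0.01, of a constant per library. The authors' deposited comparison holds log2 fold changes and their errors, a test score, and p-values, per the file headers; its direction was settled by rerunning DESeq2 on recovered reads.

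limma 3.58.1 in R 4.3.3 (eBayes with a mean-variance trend) was fitted to log2(value + 1) of 11357 genes with a mean of 10 or more, all 9 libraries together, two-sided, with Benjamini-Hochberg adjustment. Adding 1 understates folds of low genes. Because the values are normalized, edgeR 4.0.16 and DESeq2 1.42.0 on recovered reads were alternatives. Scripts were tested on simulated data. Same-mouse residuals of the tissue comparison had correlations of 0.0239, 0.054 and 0.0891, the highest being with the own number in 3 of 3 pairs. Arthritic and control nodes of the same number, which are different animals, gave 0.00462, 0.0665 and 0.0703, with the own number highest for 2 and 3. These correlations thus cannot show a shared animal, and the pairing comes from the mouse numbers in the titles. Besides the 7 genes, up to 3 called genes per list, direction and comparison with the largest fold change were named, plus partners of the same ligand and receptor pair. The genes and lists were chosen with earlier results of these data known. Floors of 3 reads cover counting error only; SDs and standard errors are over libraries. Positions are from GENCODE vM21 on GRCm38 and promoters from RefSeq. Alternatives changed the pseudocount, filter, variance model, scaling, test, libraries in the fit, the mouse block, and each library left out. Some list genes are in the counts but are not reported here by name.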

Additional observations from a re-analysis of the deposited data

How the results depend on the processing

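Il10, Ebi3 and Fgl2 stayed called in 21 of 21 alternatives in synovium against both node groups, and Il10rb in 21 of 21 against arthritic nodes. Il10ra was called in 16 of 21 against arthritic nodes and 18 of 21 against control nodes, losing the call without the variance trend (limma adjusted p = 0.0764 and 0.0609). Quantile scaling moved the median of all genes from -7.25e-05 to -0.117 (tissue) and from 0.0216 to -0.134 (synovium against control nodes), and the share of calls that were higher from 52.9% to 42.2% and from 53.9% to 42.1%. Under it Il27ra fell in synovium by 0.79 (limma adjusted p = 0.0208), the Il10rb difference against control nodes was 0.39 (limma adjusted p = 0.0727), and Il6st was at -0.12. With weights per library Il27ra also fell in synovium (limma adjusted p = 0.016).

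Between nodes, 39 genes were called. Without the trend it was 10, in fits of only the 2 groups 0 both without and with the replicate block, with DESeq2 173, and with a library left out 0 to 64; of the 7 genes, 0 to 1 were called with a library left out. Small differences changed sign: Il10ra was at -0.04947 with library weights, and at -0.19 to 0.2147 with a library left out (-0.18 without arthritic node library 3, -0.19 without control library 1). Fgl2 was at -0.19 to 0.5662 with a library left out (-0.09 and -0.19 without arthritic node library 2 or 3, -0.14 and -0.02 without control library 1 or 2). Il27ra against control nodes was at -0.5641 (limma adjusted p = 0.0273, without synovial library 3) to 0.07397 (without synovial library 2). The log2 ratio of Ebi3 to Il12a moved with the pseudocount, from 8.81 to 9.81 (0.5 added) or 6.5 (5 added) in control nodes and from 8.31 to 6.59 (5 added) in arthritic nodes. Leaving out a library gave 3045 to 3900 called genes in tissue and 3819 to 4407 in synovium against control nodes. Causes were not tested. Pairing by number between arthritic and control mice is not by animal. Depth limits Il12a alone among the 7.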
